A study of Mus musculus with 8 samples.

Results

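The regions described here are stretches of open chromatin in mouse hepatoma cells that were listed after treatment with 0.5 and with 1 µM potassium chromate and were missing from the list of 0.1 µM. Regions of the 3 dose lists that overlapped by at least 1 bp were merged. A merged region was kept if it lay off chromosome 15 and held a region of the 0.5 µM list and one of the 1 µM list but none of the 0.1 µM list. This gave 1014 of the 17890 merged regions off chromosome 15, or 5.67%, and of 21051 merged regions in all. They are called members below. They were chosen by presence in the lists, which comes from the same measurements as the widths and scores, so those values are given as a description with no test. Beyond the exclusion of chromosome 15 and of overlap with 0.1 µM regions, their place, genes and sequences were not used to choose them.

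The cells were Hepa-1c1c7, an established mouse hepatoma line, treated for 72 h with 0.1, 0.5 or 1 µM potassium chromate, a source of hexavalent chromium, or left at 0 µM as the untreated control. Each dose had 2 libraries, 8 in all, made by ATAC-seq, in which the Tn5 transposase inserts sequencing adapters into DNA that nucleosomes and other proteins leave exposed. The files hold 1 region list per treated dose, each named together with the untreated cells, so values carry no replicate error and all 3 lists share the control. The labels do not say if libraries of one dose are separate cultures, and the labels of the 1 µM libraries carry the prefix N503 where all others carry N502, which cannot be told apart from the dose. Read depth per library is unknown. The sources used here do not say whether a listed region was more open than in untreated cells, and a region absent from the 0.1 µM list is not shown to be closed there.

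In a cell nucleus, accessible DNA is concentrated at promoters, where transcription starts, and at enhancers and insulators that lie inside or between genes. Promoters of broadly expressed genes often stay open under most conditions, while enhancers vary more from state to state. Hexavalent chromium enters cells through anion transporters and is reduced there by ascorbate, glutathione and other thiols. Hepa-1c1c7 cells are widely used to study the aryl hydrocarbon receptor (AHR), which pairs with ARNT to switch on enzymes of xenobiotic metabolism, and NRF2, which pairs with small MAF proteins, governs many antioxidant genes.

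Members touched promoters of enzymes and regulators of these systems and of DNA replication. The following RefSeq promoter windows (GRCm38.p6, from 250 bases before to 50 after an annotated start, 300 bases each, read 5′ to 3′ on the gene's strand) each overlapped a member. They are a selection: windows of other genes named below, Cdk1 and Txn1 among them, also overlapped a member and are not shown. Gstm1, which encodes a glutathione S-transferase, lies on the minus strand at chr3:108017769-108018068. Arnt lies on the plus strand at chr3:95434140-95434439. Por, encoding the reductase that feeds electrons to cytochrome P450 enzymes, has a plus-strand start with the window chr5:135688895-135689194. Mafk, encoding a small MAF protein, lies on the plus strand at chr5:139791286-139791585. Capitals in these 4 sequences mark the letters GCGTG, the core of the AHR and ARNT recognition site, or their reverse complement.
Gstm1: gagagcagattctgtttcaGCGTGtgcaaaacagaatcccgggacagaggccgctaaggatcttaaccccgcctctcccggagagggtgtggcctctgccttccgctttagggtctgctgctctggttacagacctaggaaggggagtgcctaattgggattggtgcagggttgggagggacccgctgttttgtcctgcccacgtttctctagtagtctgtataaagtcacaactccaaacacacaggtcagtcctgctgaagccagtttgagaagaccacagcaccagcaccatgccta
Arnt: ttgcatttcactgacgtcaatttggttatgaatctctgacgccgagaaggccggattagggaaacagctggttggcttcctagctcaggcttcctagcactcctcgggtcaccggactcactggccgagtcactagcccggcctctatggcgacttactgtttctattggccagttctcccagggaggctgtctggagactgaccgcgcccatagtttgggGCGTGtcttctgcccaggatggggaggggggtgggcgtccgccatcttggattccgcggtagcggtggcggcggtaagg
Por: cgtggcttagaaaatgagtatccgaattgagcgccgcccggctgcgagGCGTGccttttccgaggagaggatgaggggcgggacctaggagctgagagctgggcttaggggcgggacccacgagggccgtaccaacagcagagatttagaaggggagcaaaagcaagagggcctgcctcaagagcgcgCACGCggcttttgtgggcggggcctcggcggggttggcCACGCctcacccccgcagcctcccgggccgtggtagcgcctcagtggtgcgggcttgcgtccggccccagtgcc
Mafk: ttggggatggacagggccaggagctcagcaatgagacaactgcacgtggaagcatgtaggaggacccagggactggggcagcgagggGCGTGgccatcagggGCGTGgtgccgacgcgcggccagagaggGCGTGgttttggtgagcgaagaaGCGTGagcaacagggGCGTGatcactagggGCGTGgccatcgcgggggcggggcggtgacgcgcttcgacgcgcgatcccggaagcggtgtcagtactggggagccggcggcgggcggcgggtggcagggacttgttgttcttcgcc

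The remaining windows belong to genes of DNA replication. Orc1, encoding the large subunit of the origin recognition complex, has a plus-strand window at chr4:108579204-108579503. Top2a, encoding a topoisomerase that untangles replicated DNA, lies on the minus strand at chr11:99024140-99024439. Capitals mark the letters CCAAT, the box bound by NF-Y, or their reverse complement. Only the windows of Orc1 and Gstm1 lay wholly within both a 0.5 and a 1 µM region of 1 member, and the other 4 were added after their values were seen. A match is a description of the letters and not a sign of binding. GCGTG was in 54.9% of member promoters and 55.2% of those with a region of all doses, and CCAAT in 52.4% and 46.8%.
Orc1: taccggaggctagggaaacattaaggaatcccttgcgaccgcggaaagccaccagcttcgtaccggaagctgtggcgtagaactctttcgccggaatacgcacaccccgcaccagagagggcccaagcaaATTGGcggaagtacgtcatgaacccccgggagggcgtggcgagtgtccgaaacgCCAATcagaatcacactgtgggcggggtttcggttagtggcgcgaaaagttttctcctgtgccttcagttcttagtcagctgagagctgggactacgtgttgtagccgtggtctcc
Top2a: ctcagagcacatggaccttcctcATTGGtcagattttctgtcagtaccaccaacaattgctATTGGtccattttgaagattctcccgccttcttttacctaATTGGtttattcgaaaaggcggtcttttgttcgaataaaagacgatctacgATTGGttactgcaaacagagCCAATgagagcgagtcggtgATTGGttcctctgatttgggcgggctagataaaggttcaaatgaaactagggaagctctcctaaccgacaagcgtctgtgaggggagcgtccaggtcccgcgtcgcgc

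The Gstm1 window held 1 GCGTG match, at base 20 counted from its 5′ end, and the Arnt window 1, at base 222. Por held 3 and Mafk 6, of which the first began at base 88 and the last at base 184. Orc1 held 2 CCAAT matches and Top2a 6. These letters do not divide the genes by function, and only 1 motif is marked per sequence. Orc1 also held 1 GCGTG match, and Gstm1 held 2 and Arnt 1 of CCAAT, while Por and Mafk had no CCAAT and Top2a no GCGTG. Of the replication windows not shown, Cdk1 held 3 CCAAT matches, Mcm7 held 1, and Kif11 held 1 beside 2 of GCGTG. The Gstm1 member carried a deposited score of 4 at 0.5 µM and 26 at 1 µM, the Arnt member 6 and 27, the Por member 17 and 14, the Mafk member 15 and 5, the Orc1 member 15 and 12, and the Top2a member 17 and 18. Scores are whole numbers from 4 upwards on a scale that is not stated, so the score is used only to place a region within its own list and is not read as a difference between doses.

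Members were narrower and ranked lower in both lists than regions listed at all 3 doses, and were close to other regions listed at 2 doses. Their 0.5 µM regions had a median width of 273 bp (lowest 199, highest 1558) and a median score of 8 (4 to 32), and their 1 µM regions had a median width of 306 bp (199 to 1334) and a median score of 10 (4 to 47). The median member stood at percentile 36.0 of the 0.5 µM list and 39.1 of the 1 µM list, against 63.6 and 74.1 for regions listed at all 3 doses. Merged, the median member spanned 376 bp, against 586 bp for regions listed at all 3 doses. Members took up 10.8% of the 0.5 µM list and 7.42% of the 1 µM list off chromosome 15, and covered 411 kb. In 998 members 1 region of each list met, and the other 16 held 2 regions of a list. Among the 998, the regions of both doses lay nearly on top of each other: they shared a median 96.3% of the narrower region, 411 were nested, and the midpoints were a median 50.5 bp apart. The 1 µM region was the wider one in 605 (60.6%).

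The rule bars overlap with any region of the 0.1 µM list, so distances to such regions are partly set by it. They are given as a description, with no other class beside them. The median distance from a member to the nearest 0.1 µM region was 32936.5 bp, with quartiles of 8439 and 109232 bp. Only 54 members (5.33%) had one within 500 bp, 281 within 10 kb, and 266 (26.2%) had none within 100 kb. The members nearest to the limit lay 6 bp (Adhfe1, chr1:9547844-9548487, scores 7 and 16), 11 bp (9332 bp from Tmem37, scores 11 and 19) and 17 bp (inside Gabpb1, scores 10 and 8) from a 0.1 µM region. Just outside, merged regions at LTO1, inside Fam20a and at Stk40 met a 0.1 µM region over 5, 10 and 33 bp, with scores of 9, 4 and 5 there.

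Members sat at gene ends about as often as the regions listed at all doses, and more often than the other partly shared regions. Of the 1014 members, 386 had their midpoint no more than 1 kb from an end of a protein-coding gene, which is 38.1% (95% exact binomial interval 35.1 to 41.1). A further 310 (30.6%) lay inside a gene and 318 (31.4%) between genes. The share at gene ends was 39.1% (37.9 to 40.3) for the 6331 regions listed at all doses, 22.3% (20.8 to 23.9) for the 2868 listed at 0.1 and 1 but not 0.5 µM, and 26.2% (21.9 to 30.8) for the 390 listed at 0.1 and 0.5 but not 1 µM. Regions of a single dose had 17.2% at 0.1 µM, 28.8% at 0.5 µM and 24.3% at 1 µM. The intervals cover counting error only, since regions of 1 list are not replicates, and the differences were not tested.

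**Figure D1:**
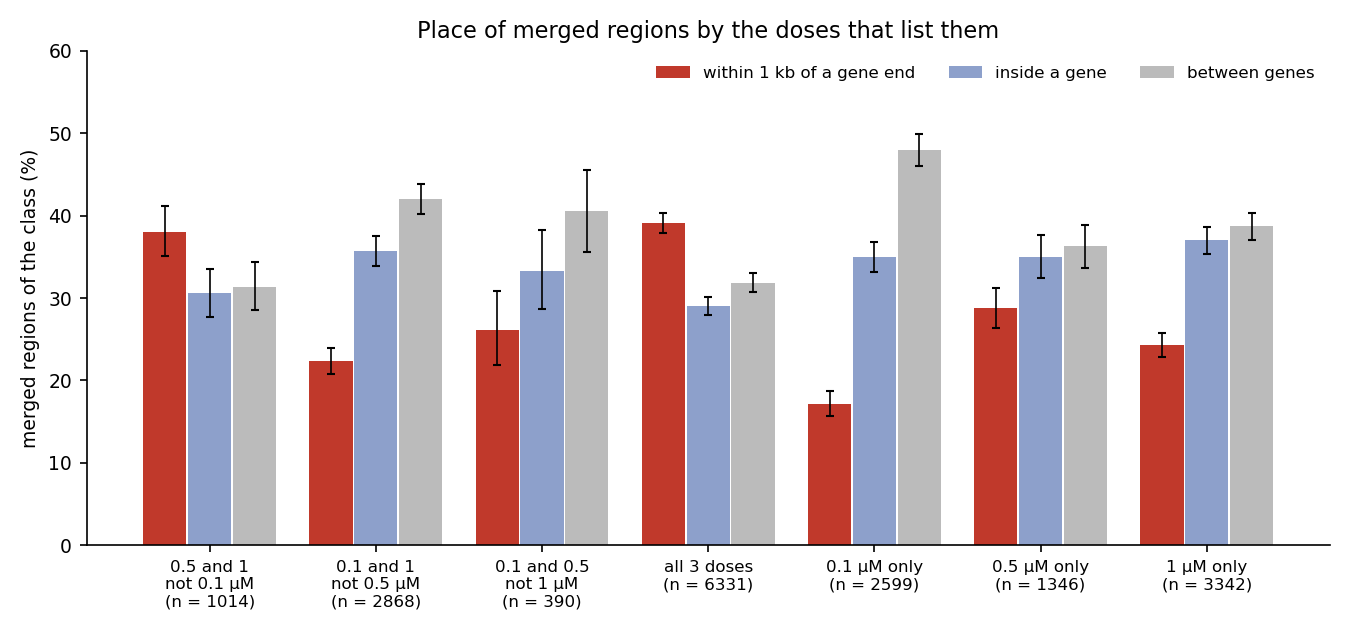
Share of merged regions off chromosome 15 (percent, y axis) within 1 kb of a protein-coding gene end, inside a gene or between genes, for each combination of doses that lists them (x axis), with 95% exact binomial intervals as error bars. Gene ends held 38.1% of members, next to 39.1% of regions listed at all doses and 22.3% of those listed at 0.1 and 1 but not 0.5 µM.

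Within bands of score, members stayed above the regions listed at 0.1 and 1 but not 0.5 µM. In score percentiles 0 to 25, 25 to 50, 50 to 75 and 75 to 100 of the 1 µM list, gene ends held 36.5%, 37.0%, 41.1% and 36.7% of members, against 23.3%, 21.1%, 22.2% and 23.6% of regions listed at 0.1 and 1 but not 0.5 µM. Regions of all doses gave 37.2%, 38.4%, 35.9% and 41.6%, so members were below them in 3 bands and above in that of 50 to 75. The highest band held 49 members. In the same bands of the 0.5 µM list, gene ends held 35.9%, 37.9%, 39.7% and 48.3% of members, 34.2%, 34.2%, 36.7% and 45.8% of regions of all doses, and 24.4%, 27.8%, 28.9% and 23.1% of those listed at 0.1 and 0.5 but not 1 µM. By width at 1 µM, the share of members at gene ends was 32.1% up to 250 bp, 36.6% from 250 to 350 bp, 44.4% from 350 to 500 bp and 44.6% above. In the same classes of width it was 18.2%, 18.3%, 27.2% and 35.6% for regions listed at 0.1 and 1 but not 0.5 µM, and 22.3%, 24.8%, 29.5% and 51.8% for regions of all doses. Up to 500 bp, members thus exceeded both. On single chromosomes, the share at gene ends was higher in members than in regions listed at 0.1 and 1 but not 0.5 µM on 17 of 19 chromosomes; the exceptions, 14 and X, held 14 and 8 members. It was higher than in regions of all doses on 6 of 19.

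**Figure D2:**
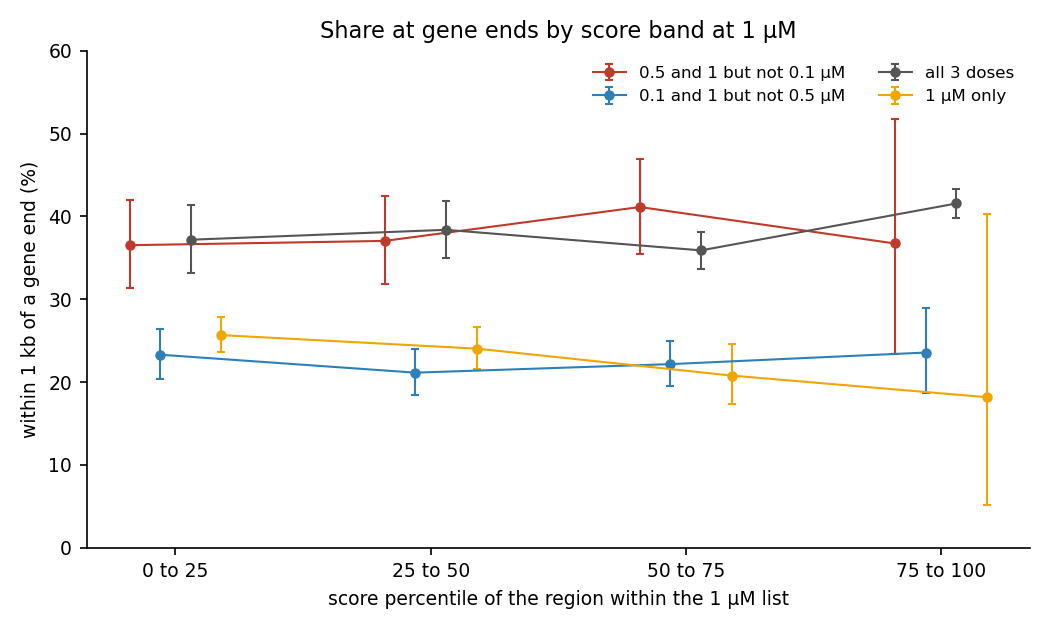
Share of merged regions at gene ends (percent, y axis) by the band of score percentile in the 1 µM list in which their best region falls (x axis), for members and 3 other classes, with 95% exact binomial intervals. Members stay between 36.5% and 41.1%, while regions listed at 0.1 and 1 but not 0.5 µM stay between 21.1% and 23.6%.

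The gene ends in question were mostly starts. The RefSeq promoter table gave a strand for the genes of 316 of the 386 gene-end members: 295 (93.4%) lay at a start alone, 12 (3.80%) at the other end alone and 9 at both. Of the 946 members on chromosomes the table covers, 369 (39.0%) had their midpoint within 1 kb of a RefSeq start, against 40.6% of regions of all doses and 22.9% of those listed at 0.1 and 1 but not 0.5 µM. Members lay somewhat further upstream: their median position was 39 bp before the start, with 63.4% upstream, whereas regions of all doses had a median of 10 bp before it, with 53.4% upstream. Regions listed at 0.1 and 1 but not 0.5 µM lay between, at 22.5 bp before it and 57.2% upstream. Those listed at 0.1 and 0.5 but not 1 µM had 11.5 bp and 54.7%. These shifts are small beside the widths of the regions and were not tested. Within that 1 kb, 81.6% of members were no more than 250 bp from the start. Members also more often lay within 1 kb of the ends of at least 2 genes, counting overlapping genes that share an end. This held for 85 of 386 gene-end members (22.0%), 16.0% of regions of all doses and 12.7% of those listed at 0.1 and 1 but not 0.5 µM. For those listed at 0.1 and 0.5 but not 1 µM it was 18.6%, which rests on 19 of 102 regions. These differences were not tested.

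**Figure D3:**
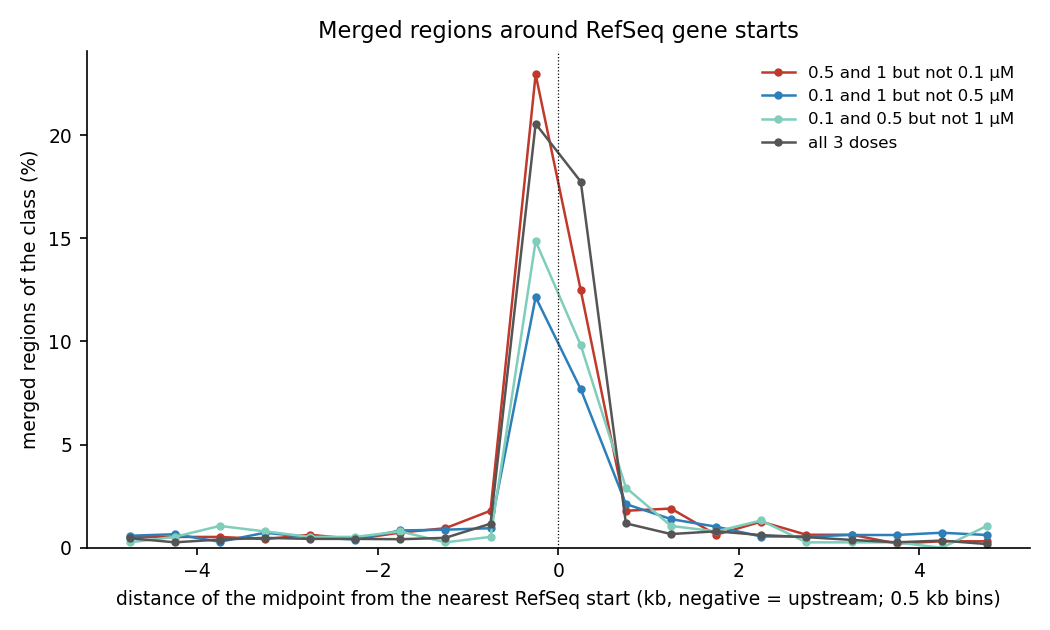
Position of merged-region midpoints relative to the nearest RefSeq start (x axis, kb, upstream negative, bins of 0.5 kb) as a percent of each class (y axis). In members, 22.9% fell in the 0.5 kb before a start and 12.5% in the 0.5 kb after it, and in regions of all doses 20.5% and 17.7%.

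Among protein-coding genes off chromosome 15, 469 of 20855 (2.25%) had a member at an end, and 428 of these (91.3%) had no 0.1 µM region at either end. The second share is partly set by the rule, which keeps only merged regions that hold no 0.1 µM region. Counting only the 3241 genes with any region listed at both 0.5 and 1 µM at an end, 14.5% had a member there. A member lay within or up to 10 kb from 1072 genes (5.14%). All protein-coding genes include those silent in this line, so counts for gene lists are read against both shares, as descriptions.

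Genes of AHR signalling and xenobiotic metabolism had the highest share of the 21 lists examined: 5 of 22 (22.7%) had a member at an end, and these were 5 of the 8 list genes with any region at both 0.5 and 1 µM there (62.5%). Arnt, encoding the AHR partner, had its member at chr3:95434146-95434592, 21 bp before the start and 154007 bp from the nearest 0.1 µM region, with scores of 6 at 0.5 µM and 27 at 1 µM. Cyp1b1, a cytochrome P450 induced through AHR, had one 810 bp before its start at chr17:79715656-79716086, with scores of 12 and 26. The Gstm1 member at chr3:108017453-108018261 was one of the widest, with 701 bp at 0.5 µM and 677 bp at 1 µM. Its relatives Gstm7 and Gstm4 had members of their own (scores 12 and 19, and 14 and 16), so that 3 of 22 glutathione S-transferase genes, a family set chosen after other counts were known, had one. Gstm genes resemble each other, and the sources used here do not say how reads matching several of them were assigned.

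The remaining 2 genes of the list, Ugt1a1 and Ugt1a6a, are counted through the same pair of members. Ugt1a genes encode glucuronosyltransferases and share their last exons, so a region at the common 3′ end touches several of them. A group of 3 members lay there between chr1:88216992 and 88220870. The first, inside the genes, held 2 regions at 0.5 µM with scores of 5 and 19 and 1 region at 1 µM with a score of 18. The others had scores of 4 and 6, and 9 and 11, at 0.5 and 1 µM. Within 10 kb, the list gained Ugt1a6b from this group, Ahrr and Por. Ahrr, the AHR repressor, had a member with scores of 17 and 13 outside the gene, 108219 bp from the nearest 0.1 µM region. Por had 3, of which the one with the highest score at 0.5 µM (17 and 14) lay 124 bp before an internal start, and no 0.1 µM region lay in Por or within 10 kb of it.

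Among NRF2, glutathione and antioxidant genes, 5 of 34 (14.7%) had a member at an end, which were 5 of 14 with any region at both 0.5 and 1 µM there (35.7%). With a 50% reciprocal overlap the count was 3, and the members at Txn1, Taldo1 and the Mafk start were no longer found. That count of 3 therefore includes a gene reached through a region other than the 5 members counted above. None of the 5 genes had a 0.1 µM region at an end, which the rule makes likely. Gss, encoding glutathione synthetase, had scores of 7 at 0.5 µM and 5 at 1 µM, with the midpoint 120 bp after the start. Txn1, encoding thioredoxin, had scores of 9 and 6, and its nearest 0.1 µM region was 1442433 bp away. Taldo1, a transaldolase of the pentose phosphate pathway, had scores of 9 and 9 at 9 bp before the start. Mafk had a member at its start (15 and 5) and a further one inside the gene (11 and 14). In Srxn1, encoding sulfiredoxin, the member (11 and 10) lay at the other end of the gene.

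Of the DNA replication and cell cycle genes, 5 of 44 (11.4%) had a member at an end, or 5 of 20 with any region at both doses there (25%). With a 50% reciprocal overlap the count was 3, without the members at Gmnn and Kif11. The Mcm7 member at chr5:138170907-138171484, at the ends of Mcm7 and Ap4m1, was among the highest ranked, with scores of 20 at 0.5 µM and 34 at 1 µM. Mcm7 encodes a subunit of the replicative helicase. It was the only one of the 5 with a 0.1 µM region at an end, 246 bp from the member. Gmnn, encoding the licensing inhibitor geminin, had scores of 6 and 12. Cdk1, the kinase that drives entry into mitosis, had 7 and 21 at 64 bp before the start. Kif11, a spindle motor, had 5 and 5, and Top2a had 17 and 18 with the nearest 0.1 µM region 1031353 bp away. The Orc1 member (15 and 12) lay at a RefSeq start that is inside the annotated gene and is not in this count.

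Chromatin remodelling genes had a member at an end in 4 of 34 cases (11.8%), or 4 of 15 with any region at both doses there (26.7%). These were Smarcad1 (scores 7 at 0.5 µM and 20 at 1 µM), Brd9, a subunit of a BAF complex (8 and 16), Chd2 (4 and 7) and Baz1b (7 and 9). Arid1b, encoding a BAF subunit, had 4 members inside the gene and none at its ends. In the list of CTCF, cohesin and condensin genes, 2 of 26 (7.69%) had one, or 2 of 11 with any region at both doses there (18.2%). These were Smc3, the cohesin subunit, with scores of 19 and 18, and Smchd1, with 9 and 5 and a 0.1 µM region 322 bp away. Joining regions up to 500 bp apart, or a window of 500 bp, gave 1. None of 51 histone and DNA modifying enzyme genes had a member at an end, although 8 had a region at both doses there; a 50% reciprocal overlap or a window of 2500 bp gave 1.

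Other lists had 1 or 2 genes with a member at an end. Cholesterol and fatty acid synthesis had 2 of 30 (6.67%, or 2 of 9 with any region at both doses there), Mvd (8 and 8) of the mevalonate pathway and the desaturase Scd2 (6 and 8). Cytosolic ribosomal proteins had 2 of 32 (6.25%, or 2 of 7), Rpl27 (11 and 16) and Rps3 (8 and 12). The TGF-beta, WNT and Hippo list had 2 of 33 (6.06%, or 2 of 10), the inhibitory Smad7 (8 and 6) and the WNT receptor Fzd7 (7 and 13). A single gene, out of 9, 10, 10 and 4 with any region at both doses, was found in each of the lists of heat shock proteins (Hsp90aa1, 7 and 8), AP-1 and immediate early genes (Atf2, 7 and 14), respiratory chain (Ndufa10, 10 and 11) and hepatocyte transcription factors. The last was Cebpb, which had a pair of members after its start, with scores of 7 and 15 and of 8 and 9, beside a 0.1 µM region 501 bp from the nearer one.

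Some lists had no gene with a member within 1 kb of an annotated end. None was found among 24 metal handling genes, 35 p53 and DNA damage genes and 32 genes of glycolysis, gluconeogenesis and the pentose phosphate pathway, of which 11, 11 and 6 had a region at both 0.5 and 1 µM at an end. These zeros depended on the settings: a 50% reciprocal overlap, or a score of at least 10 at all doses, gave 1 metal handling and 1 p53 gene, and a window of 2500 bp gave 1 glycolysis gene. They also depended on which genes were listed. Taldo1 of the pentose phosphate pathway was counted in the NRF2 list. The zinc transporter gene Slc39a13, which had a member at an end, was not in the metal handling list. Aldoa, encoding the glycolytic enzyme aldolase, had a member (13 at 0.5 µM and 20 at 1 µM) 17 bp after a RefSeq start that lies inside the annotated gene. Hox genes (28), neuronal (20) and immune (19) markers had none and also no gene with a region at both doses. Of 20 stromal and endothelial markers, Dcn, encoding decorin, had a member (13 at 0.5 µM and 20 at 1 µM). No other gene of that list had a region at both doses at an end. The 34 hepatocyte identity genes, Alb and Ttr among them, had no member at an end, and 0, 0 and 1 of them had any region there at 0.1, 0.5 and 1 µM. Of 31 hepatocyte transcription factor genes, 7, 4 and 11 had one.

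The members that ranked highest in both lists were a mixed set of promoters and distal sites. By the lower of the 2 score percentiles, the first was at the ends of Pask, a PAS domain kinase, and Ppp1r7, a phosphatase regulator (chr1:93342600-93343034), with scores of 25 at 0.5 µM and 36 at 1 µM. Mcm7 and Ap4m1 came second. These members lay 406 and 246 bp from a 0.1 µM region, and neither was a member when regions up to 500 bp apart were joined. The third was at Hras, the small GTPase, and Lrrc56 (19 and 38), with the nearest 0.1 µM region 21188 bp away. The member at the ends of Fbxo38 and Spink10 had 28 and 26, and its nearest 0.1 µM region was 368292 bp away. Id1, an inhibitor of basic helix-loop-helix factors, had the highest score of these at 1 µM, 47, beside 18 at 0.5 µM. Dpp9 (17 and 35) and Cfdp1 (15 and 22) had theirs at a start. The remaining 3 of the first 10 were away from gene ends, inside the nuclear receptor coactivator gene Ncoa3 (18 and 37), 41.8 kb from Odf2l (19 and 23) and 90.1 kb from Zfp703 (16 and 26). The 5 widest by the smaller width of the 2 doses lay inside Rps6ka2 and Itgb6, 28.7 kb from Tagap, at Gstm1 and 6886 bp from Rcsd1.

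Members were mostly alone. Chained at 10 kb, 927 stood singly, 28 groups held 2, 6 groups held 3 and 2 groups held 6 and 7. A neighbouring member within 10 kb was present for 8.28% of members, against 21.4% of the far more numerous regions of all doses, 11.96% of those listed at 0.1 and 1 but not 0.5 µM, and 2.05% of those listed at 0.1 and 0.5 but not 1 µM. These shares move with the number of regions in a class. The group of 7 ran over 20.2 kb upstream of and into Daw1 (chr1:83142251-83162439), among 16 merged regions of which 6 were listed at 0.5 µM only. Its members had low scores, 5 to 10 at 0.5 µM and 5 to 7 at 1 µM. The group of 6 lay within Rps6ka2, encoding a ribosomal S6 kinase (chr17:7252221-7271366), among 15 merged regions, with scores of 5 to 21 at 0.5 µM.

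At Id1, all 3 merged regions in the span chr2:152734888-152738844 were members. By midpoint, the first lay 1120 bp from the gene, with scores of 13 at 0.5 µM and 19 at 1 µM. The second lay at the gene with 18 and 47. The third lay 926 bp from the gene on the other side, with 7 and 13. The 0.1 µM list had a region 186 bp past the third. Bcl2l1, encoding an inhibitor of apoptosis in the same 1 Mb window, had 3 members inside the gene (14 and 9, 23 and 20, 7 and 10). That window, chr2:152000001-153000000, held 10 members among 32 merged regions (31.3%, against 5.67% overall). Windows with more members also held more merged regions: 15 of 107 at chr2:167000001-168000000 and 13 of 97 at chr17:5000001-6000000, where Arid1b and Zdhhc14 lie. Of those merged regions, 38 of 107 and 20 of 97 held a 0.1 µM region, against 10 of 32 in the Id1 window. Some windows with fewer members had a similar share, with 7 of 23 (30.4%) at chr18:75000001-76000000 and 6 of 23 (26.1%) at chr2:155000001-156000000.

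**Figure D4:**
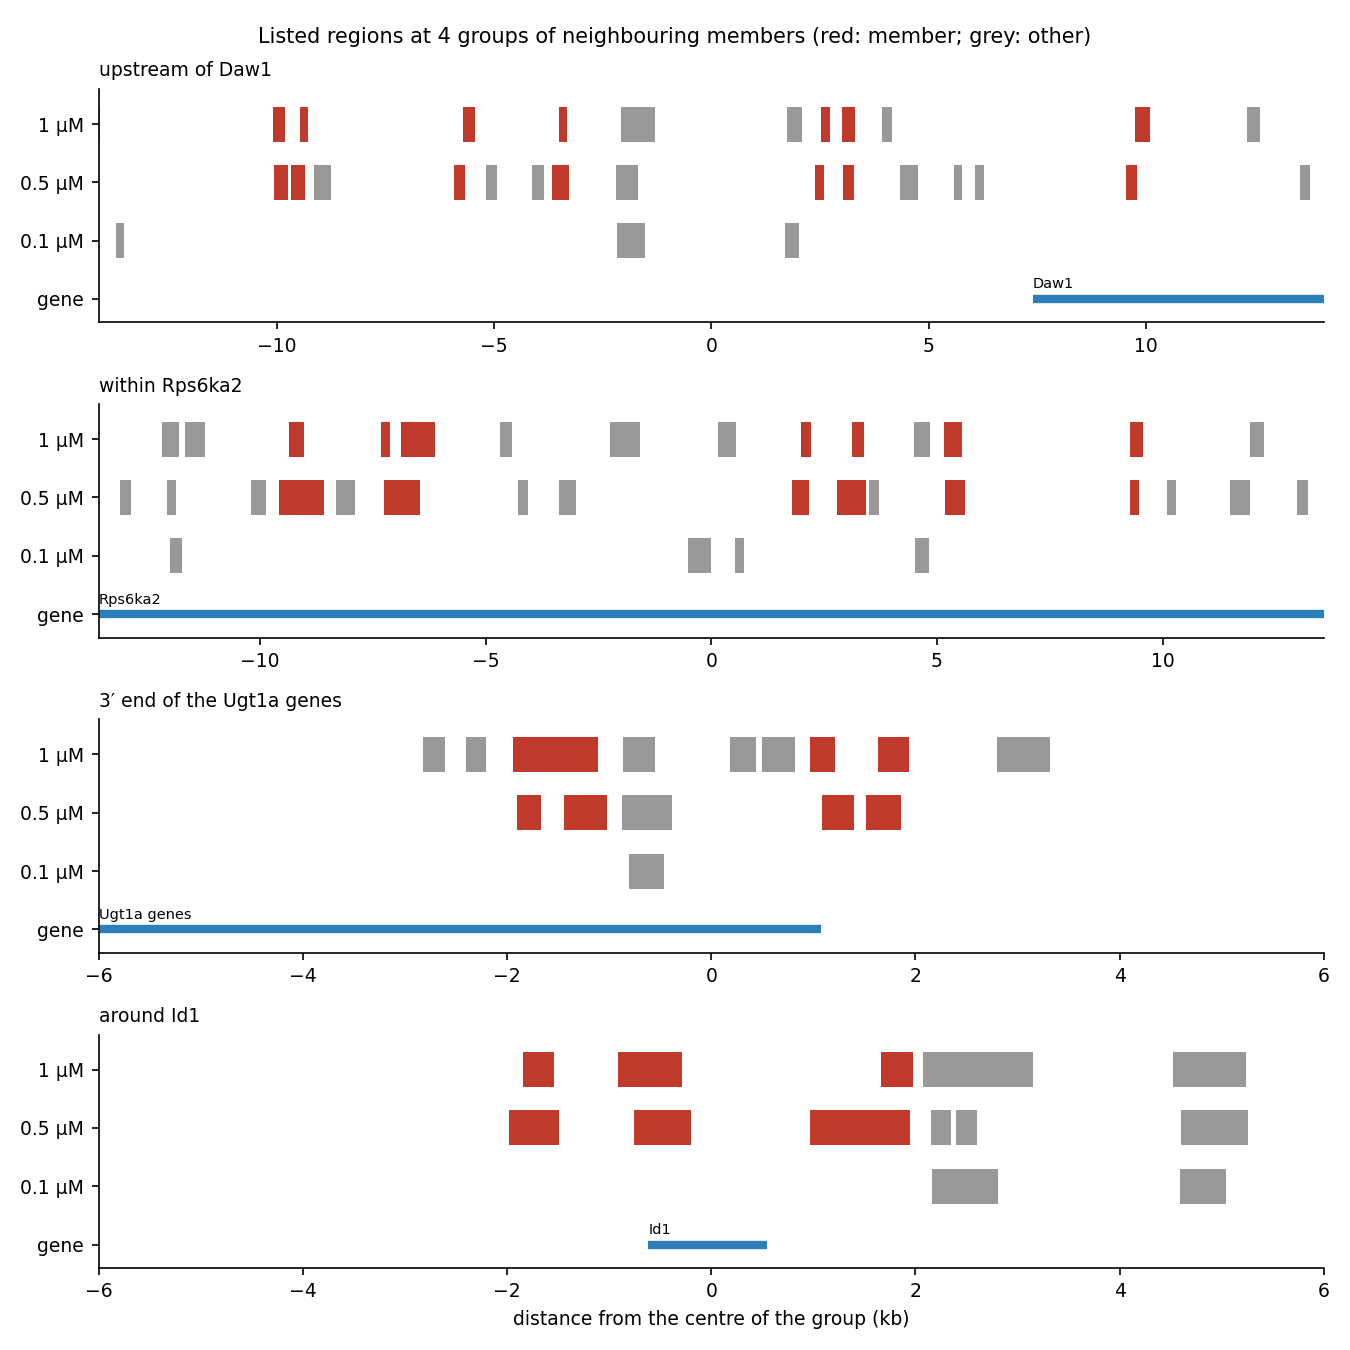
Listed regions (boxes to scale along the x axis, kb from the centre of each group) at 0.1, 0.5 and 1 µM around 4 groups of members, with genes in blue. Red boxes belong to members and grey boxes to other merged regions. At Id1, 3 members stand together, and in the group at Daw1 members lie among other merged regions, most of them listed at 0.5 µM only.

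Further genes with at least 3 members in or within 10 kb included Lmna, encoding the nuclear lamins A and C, whose members (8 and 6, 7 and 8, 10 and 8 at 0.5 and 1 µM) lay at least 926106 bp from any 0.1 µM region. In Lmna, Por, Shank2, Polr2g and Gm50595 no 0.1 µM region lay in or within 10 kb of the gene, nor in Sys1. Polr2g, encoding a subunit of RNA polymerase II, had a member (8 and 6) with the midpoint 57 bp from its end. Ezr, encoding the membrane linker ezrin, had 4 members among 11 merged regions, one of them at its end (12 and 11). H3f3b, encoding the histone variant H3.3, had 3 within 10 kb, of which the widest (11 and 15) had its midpoint 784 bp from the gene.

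By chromosome, members made up 8.44% of the merged regions of chromosome 11 (70 members), 7.85% of chromosome 7 (86), 7.72% of chromosome 19 (49), 7.61% of chromosome 18 (68) and 7.43% of chromosome 17 (87), against 5.67% over all. The lowest shares were on chromosome 13 with 2.27% (19), X with 2.56% (8) and chromosome 6 with 3.19% (28). Chromosomes 2 and 1 held the most members, 121 and 114. The share of members among regions listed at both 0.5 and 1 µM followed the same extremes, with 21.9% on chromosome 11 and 5.69% on chromosome 13.

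**Figure D5:**
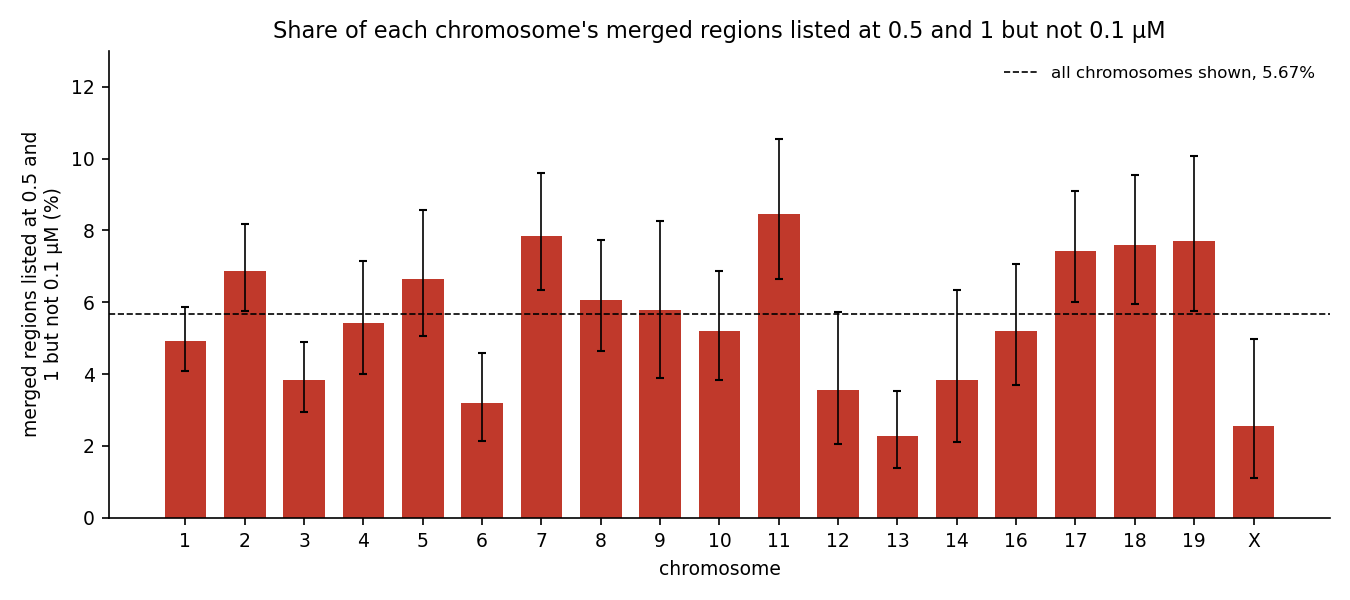
Members as a percent of all merged regions of each chromosome (y axis) with 95% exact binomial intervals. The dashed line is the share over all chromosomes shown, 5.67%; chromosome 11 stands highest at 8.44% and chromosome 13 lowest at 2.27%.

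The 318 members between genes lay a median 19.6 kb from the nearest protein-coding gene. Of these, 98 were within 10 kb, 43 were more than 100 kb away and 64 lay inside an annotated lncRNA. RefSeq microRNA hairpins were rarely near members: Mir7687, inside Gse1, overlapped one (7 and 9 at 0.5 and 1 µM), Mir8098 lay 93 bp from one (13 and 19) and Mir6992 976 bp from one (6 and 20).

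Member promoters had the base composition of open promoters in general. The 435 RefSeq promoter windows of 381 genes that overlapped a member had a median GC content of 62% and a median observed-to-expected CpG ratio of 0.803, against 61.7% and 0.808 for windows with a region of all doses, and 53% and 0.386 for all 31650 windows off chromosome 15. GCGTG, searched on both strands like every motif here, was in 54.9% of member promoters, 55.2% of those with a region of all doses and 32.6% of all. The metal response core TGCNCNC was in 56.6%, 58.9% and 51.3%, and the antioxidant response core TGACNNNGC in 15.6%, 16.6% and 12.4%. The AP-1 letters TGANTCA were in 4.83%, 5.41% and 7.85%, and the E-box CACGTG in 10.1%, 9.96% and 7.20%. The core of the CTCF motif was in 3.68%, 2.98% and 2.44%. Some of these overlap: TGCNCNC can contain the reverse complement of GCGTG, and TGACNNNGC can contain TGANTCA.

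Shares of CCAAT and of the GC box were higher in member promoters than in those of the other classes, but several intervals overlapped those of members: for CCAAT those of regions of all doses and of regions at 0.1 and 0.5 but not 1 µM (40.9%, 31.6 to 50.7), and for the GC box those of the last (66.4%, 56.7 to 75.1). CCAAT was in 52.4% of member promoters (47.6 to 57.2), 46.8% (45.1 to 48.6) of those with a region of all doses, 36.2% (32.5 to 40.0) of those with a region at 0.1 and 1 but not 0.5 µM, and 37.6% of all. The GC box GGGCGG was in 76.3% (72.0 to 80.2), 68.3%, 65.3% and 35.9%. The ETS core CCGGAAG was in 19.8%, 21.9%, 27.2% and 8.93%, and the cyclic AMP response letters TGACGTCA in 5.29%, 4.51%, 2.28% and 1.82%. Among windows with 60 to 70% GC, CCAAT was in 50.3% of 189 member promoters, 44.8% of those with a region of all doses, 35.4% of those at 0.1 and 1 but not 0.5 µM and 35.7% of all. Above 70% GC, CCAAT was in 32.8% of member promoters and 32.8% of those with a region of all doses. GGGCGG was in 40.7% of member promoters, 17.2% of those with a region of all doses and 6.58% of those at 0.1 and 1 but not 0.5 µM up to 50% GC (27 member windows), in 65.8%, 55.0% and 50.3% from 50 to 60%, in 84.1%, 82.1% and 81.5% from 60 to 70%, and in 93.8%, 93.2% and 91.9% above, where windows at 0.1 and 0.5 but not 1 µM had 94.4%. A window can hold several of these motifs, windows of 1 gene can overlap, and no share was tested.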

How the data were processed

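ATAC-seq regions of Hepa-1c1c7 cells were analysed as deposited, 1 list per treated dose. Per the submitters' processing notes, the tools include Bowtie2, Picard and MACS2 and the build is mm10; neither versions nor roles are listed. The score that the authors deposited for each region is a whole number, 4 or more, on an unstated scale. The names of the lists carry a q tag and the tags filtered, BL and unique, which are not explained. Beyond these tags, the threshold, the handling of control and replicates, and the Tn5 shift are not stated in the sources used here. How the libraries of a dose were combined is unknown, so depth and replicate error are unknown.

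Regions sharing at least 1 bp were merged (Python 3.11.15, numpy 2.4.6, scipy 1.17.1), and midpoints were placed against RefSeq genes of GRCm38.p6, in 1-based mm10 coordinates. Promoter sequences came from RefSeq (32619 windows; none was given for chromosome 18, and 79.9% of protein-coding genes had one), and strand was taken from them. Of 664 listed gene names, 663 matched. Shares carry 95% exact binomial intervals. No comparison was tested, since each dose has 1 list and all share a control. The merging was tested on simulated data.

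Members and gene lists were chosen with earlier results of these data known. Named were the 10 members with the highest lower score percentile, the 5 widest, those at ends of listed genes, genes with 3 or more members, the densest groups and those nearest the limit of the rule. Alternatives were a 50% reciprocal overlap, joining regions up to 500 bp apart, a score of at least 10, chromosome 15 included, exactly 1 region per list, gene-end windows of 500 and 2500 bp, any base in place of the midpoint, a 50 kb neighbour distance and promoters wholly within a member.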

Additional observations from a re-analysis of the deposited data

How the results depend on the processing

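No paired analysis was possible because each dose has 1 region list, and for the same reason no replicate could be left out. Kept members numbered 803 of 1014 with a 50% reciprocal overlap and 950 when regions up to 500 bp apart were joined. With a score of at least 10 at 0.5 and 1 µM there were 243 members, with 41.6% at gene ends, 27.2% inside genes, 125 genes with a member at an end, median widths of 307 bp at 0.5 µM and 354 bp at 1 µM, median score percentiles of 63.6 and 57.4, and 0.823% with a neighbour. With that score at all doses the values were 42.9%, 27.0%, widths of 354 and 407 bp, percentiles of 63.6 and 62.8, and 3.42%, and only 243 of the 732 regions so found were members. A 50% reciprocal overlap gave widths of 290 and 315 bp and percentiles of 42.9 and 43.4. Gene ends held 34.8% with chromosome 15 included. They held 45.3% with a window of 2500 bp (25.9% inside genes) and 33.1% with one of 500 bp (33.7% inside). A neighbour distance of 50 kb gave 20.7%. Of promoters wholly within a member, 60.3% held CCAAT and 2.84% TGACGTCA. Members exceeded regions listed at 0.1 and 1 but not 0.5 µM in their share at gene ends under all 6 of these settings for which both were computed. The margin was smallest at 41.6% against 27.4%, with a score of at least 10 at 0.5 and 1 µM, and largest at 45.3% against 29.0%, with a window of 2500 bp. The margin over regions listed at 0.1 and 0.5 but not 1 µM narrowed to 39.4% against 35.8% with a reciprocal overlap, and to 41.6% against 39.0% with a score of at least 10 at 0.5 and 1 µM. Of 73 named members, 48 remained with a 50% reciprocal overlap, 62 with regions up to 500 bp apart joined and 25 with a score of at least 10. The gene lists rest on few genes: with a score of at least 10 at 0.5 and 1 µM, 1 gene of AHR signalling and xenobiotic metabolism, 1 of the NRF2 list, 2 of the cell cycle list and 0 of the chromatin remodelling list had a member at an end. The cause of these changes was not tested.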

Other observations

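Gene families, grouped by the start of their symbols after other counts were known, are set beside the background of 2.25% of all protein-coding genes. A member lay at an end of 8 of 358 solute carrier genes (2.23%), 7 of 386 Zfp zinc finger genes (1.81%) and 10 of 231 Tmem genes (4.33%). None of 1101 olfactory receptor and 353 vomeronasal receptor genes, which are silent outside sensory neurons in most tissues, had one, nor did any of 77 mitochondrial ribosomal protein genes. Among 89 Cyp genes, Cyp1b1 was the only one (1.12%). The solute carriers were Slc16a1, a monocarboxylate transporter, Slc39a13, a zinc transporter, Slc26a2, a sulfate transporter, Slc25a13, Slc35c2, Slc38a10, Slc41a1 and Slc43a3.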
